A study of Mus musculus with 8 samples.

Results

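A set of 10 long noncoding RNA (lncRNA) genes that are well known from the brain was followed in fetal mouse brains after chronic stress of the mother: Malat1, Neat1, Miat, Rmst, Pantr1, Snhg11, Dlx6os1, Sox2ot, Snhg1 and Gas5. The genes were taken by name, and the 10 symbols matched 11 of the 54752 rows of the count tables, because Dlx6os1 stands on a main row and on a second row of 146 bases. All brains were from wild-type C57BL/6 fetuses (C57BL/6Slac in the study's methods) at E15.5. The 4 stress brains were F34 and F35 (female) and M28 and M29 (male), and came from a dam that received chronic unpredictable mild stress (CUMS), a changing series of mild daily stressors, from E5.5 until the day before collection. The 4 control brains were F36 and F37 (female) and M30 and M31 (male), and came from a dam without CUMS. By the study's sample table each group was 1 litter, so litter and stress cannot be told apart, and the p-values below measure the spread between littermates. The labels call the tissue brain, while the sample table calls it half_whole_brain.

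LncRNAs are transcripts that are processed much like messenger RNA but are not known to act through a protein. Malat1 and Neat1 are neighbouring genes whose RNAs stay in the nucleus, Malat1 in nuclear speckles, where splicing factors collect, and Neat1 as the scaffold of paraspeckles. Miat, also called Gomafu, is a nuclear RNA of neurons and neural progenitors that binds splicing regulators. Gas5, Snhg1 and Snhg11 are host genes, whose introns carry small nucleolar RNAs (snoRNAs) that guide the modification of ribosomal RNA. Dlx6os1, Sox2ot and Pantr1 lie beside or around the genes of the transcription factors Dlx5 and Dlx6, Sox2 and Pou3f3, and Rmst is a partner of Sox2 in neurogenesis.

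The libraries were made from RNA captured by oligo(dT), which pairs with runs of A. The mature end of Malat1 is known to be cut by RNase P and to carry an A-rich stretch that is written in the genome, in place of an added tail. The run of A in this stretch is shown in capitals with the bases on both sides of it. They are from the GENCODE vM21 transcript of 6983 bases (positions 6634 to 6714, GRCm38 chr19:5795959-5796039, minus strand). The place of the cut is not marked, and whether the capture held this run was not tested.

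Malat1 A run: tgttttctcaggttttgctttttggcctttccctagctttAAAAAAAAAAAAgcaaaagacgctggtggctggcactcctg

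The run was 12 bases long, and the longest transcripts of the other 9 genes had runs of 4 to 9. Among the longest transcripts of 10155 lncRNA genes of GENCODE, 4.98% held a run of at least 12, and among the 139 of at least 5000 bases the share was 31.7%.

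Miat is known for a repeat with the letters TACTAAC, which is like the branch point sequence of introns and is bound by splicing factor 1. The repeats are shown in capitals because they set Miat apart from the other 9 genes in sequence. They were read from the GENCODE vM21 transcript of 9163 bases (minus strand, GRCm38), positions 4931 to 5082 at chr5:112217309-112217460 and positions 5579 to 5639 at chr5:112216752-112216812.

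Miat repeats, first group: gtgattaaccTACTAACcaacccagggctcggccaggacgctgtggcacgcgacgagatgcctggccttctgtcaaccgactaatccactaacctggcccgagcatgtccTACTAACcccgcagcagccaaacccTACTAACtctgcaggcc
Miat repeats, second group: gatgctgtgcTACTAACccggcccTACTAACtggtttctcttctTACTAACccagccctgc

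The transcript held 6 copies of TACTAAC on its own strand, and of the other 9 genes Neat1 held 1 and 8 held none. At least 1 copy was found in 3.68% of the 10155 lncRNA transcripts, and 6 or more copies in 2 of them (0.0197%).

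Gas5 and Snhg1 belong to the host genes whose transcripts are known to start with a tract of C and T bases, as messenger RNAs of ribosomal proteins do. The start regions of the 3 host genes are shown from RefSeq promoter entries (build GRCm38.p6, plus strand), with 45 bases before the start and 30 from it. The unbroken run of C and T from the start base is in capitals. Gas5 had 2 RefSeq starts, of which the first had no such run, and the second is shown, at chr1:161035121-161035195. Snhg1 is shown at chr19:8723442-8723516 and Snhg11 at chr2:158375668-158375742.

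Gas5 start 2: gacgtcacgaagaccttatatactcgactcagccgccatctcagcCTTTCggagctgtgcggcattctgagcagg
Snhg1 start 1: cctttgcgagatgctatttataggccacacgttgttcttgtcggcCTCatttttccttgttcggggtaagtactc
Snhg11 start 1: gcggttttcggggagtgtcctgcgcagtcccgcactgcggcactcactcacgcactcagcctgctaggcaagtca

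The run was 5 bases at the second start of Gas5 and 3 in Snhg1, and Snhg11 started with A. A start at C followed by at least 4 bases of C or T was found in 2.51% of 32851 RefSeq promoters, and in 2 of the 8 entries for these genes, of Gas5 and Miat. The glucocorticoid receptor element letters AGAACA, on either strand, were found in 1 of the 8 entries, of Snhg1, and in 19% of all promoters. Neat1, Rmst, Pantr1 and Sox2ot were not matched to a promoter entry.

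Each brain gave 1 RNA library, and its raw counts per gene were analysed. Totals lay between 25320109 and 29105710 counts. Levels are given as CPM, a gene's counts per 1000000 counts of its library, and as CPM per kilobase of exon where genes are compared with each other. Differences are log2 fold changes from edgeR's quasi-likelihood test with sex in the model, called at a Benjamini-Hochberg adjusted p under 0.05 over the 17865 genes tested. The markers of neurons were all measured, with 10 of 10 tested and a summed level of 6659 to 7054 CPM.

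The 10 genes together took 0.281% to 0.302% of all counts of a brain. The share was 0.2869% ± 0.00500 in control and 0.2898% ± 0.00872 in stress brains (SD, n = 4 each), a difference of 0.00292 percentage points that was within the spread between brains (exact permutation test, two-sided, p = 0.629, smallest possible p 0.0286). Snhg11, Miat and Malat1 gave most of these counts.

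Per kilobase, the control levels ran from 137 to 0.145 CPM per kilobase. Snhg11 was the highest, at the 98.8th percentile of the 17865 genes. Malat1 with 79.9 and Miat with 79.1 followed, and their ranges over the 4 control brains overlapped. Gas5 was at 41.8. Pantr1 with 15.3 and Dlx6os1 with 15 overlapped in range, and Snhg1 stood at 11.3. Sox2ot with 4.35 and Rmst with 3.23 were near the middle of all genes, at the 50.7th and 44.5th percentiles. Every other pair of neighbours in this order was apart, both in the control brains and over all 8 brains. The exon lengths include bases shared with other genes, 13.8% for Malat1, 30.4% for Miat, 5.11% for Sox2ot and 38.8% for Rmst. Pairs in exons of 2 genes are not assigned, so shared bases can lower these levels by unlike amounts. The exon lengths also merge all annotated exons of a gene, and some are far longer than its longest transcript. They were 11594 against 3486 bases for Sox2ot, 7423 against 2891 for Rmst and 4458 against 2085 for Pantr1. For Snhg1 they were 2969 against 2728. The order was not computed on unshared bases or on transcript lengths. On either, neighbours such as Malat1 and Miat, Snhg1 and Sox2ot or Sox2ot and Rmst could stand in another order.

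Neat1 did not bear out the name of an abundant lncRNA in these libraries. It had 63 to 117 counts per library, and its control level of 0.145 CPM per kilobase was at the 3.24th percentile of all genes and ranked 1732 of 1836, counting the tested lncRNA genes from the highest. Its row spans 20771 bases, the length of the long isoform, while the short isoform that carries a poly(A) tail covers only its start. A level per kilobase of the whole row therefore averages over both. Whether the oligo(dT) capture held the long isoform was not tested, so these counts may not give the level of Neat1 in the brains. By CPM alone, without regard to length, it ranked 494, with 3.01 CPM against a median of 1.27 CPM for lncRNA genes. The next lowest of the 10 genes, Rmst, had 23.9 CPM.

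**Figure D1:**
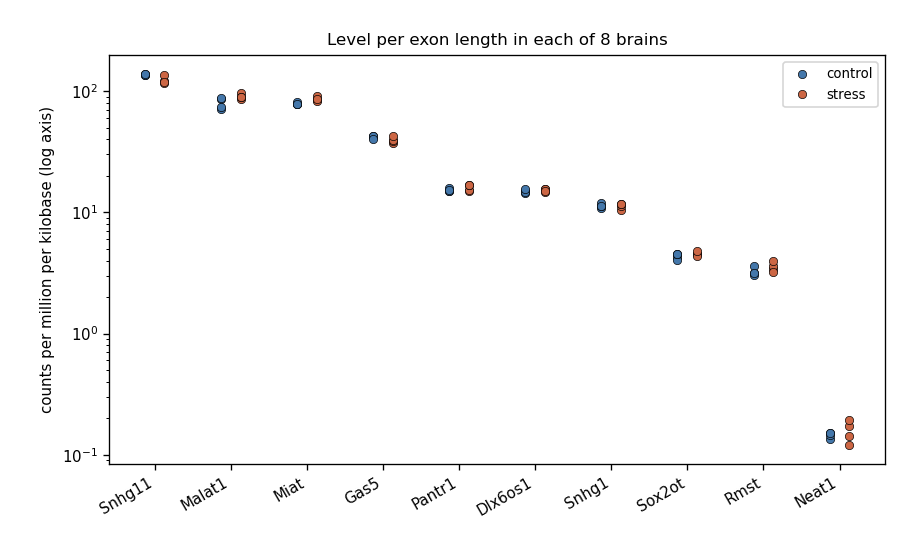
Level of each gene in CPM per kilobase of exon (log axis), 1 point per brain, 4 control and 4 stress brains per gene, ordered by the control mean. Snhg11 stood at the top (control mean 137), Malat1 and Miat overlapped at 79.9 and 79.1, and Neat1 was at 0.145, below Rmst at 3.23.

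The first question of the design was which of these genes differed between stress and control brains. Malat1 and Miat were higher and Snhg11 was lower after stress, and 7 of the 10 did not pass the test. Over all 17865 genes, 6.49% were called higher and 7.27% lower (13.8% in either direction). The groups did not overlap for 1 of the 10, Miat, against 16.4% of all genes. An unadjusted p under 0.05 was reached by 5 of the 10 and by 26.9% of all genes. The median log2 fold change of the 10 genes was 0.06, and that of all genes was 0.0015. Of 1836 lncRNA genes tested, 77 (4.19%) were called higher and 24 (1.31%) lower, and their median log2 fold change was 0.05. Their median control level was 1.27 CPM, against 17.6 CPM for all tested genes. Snhg11, which GENCODE lists as protein coding, is not among the 1836.

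**Figure D2:**
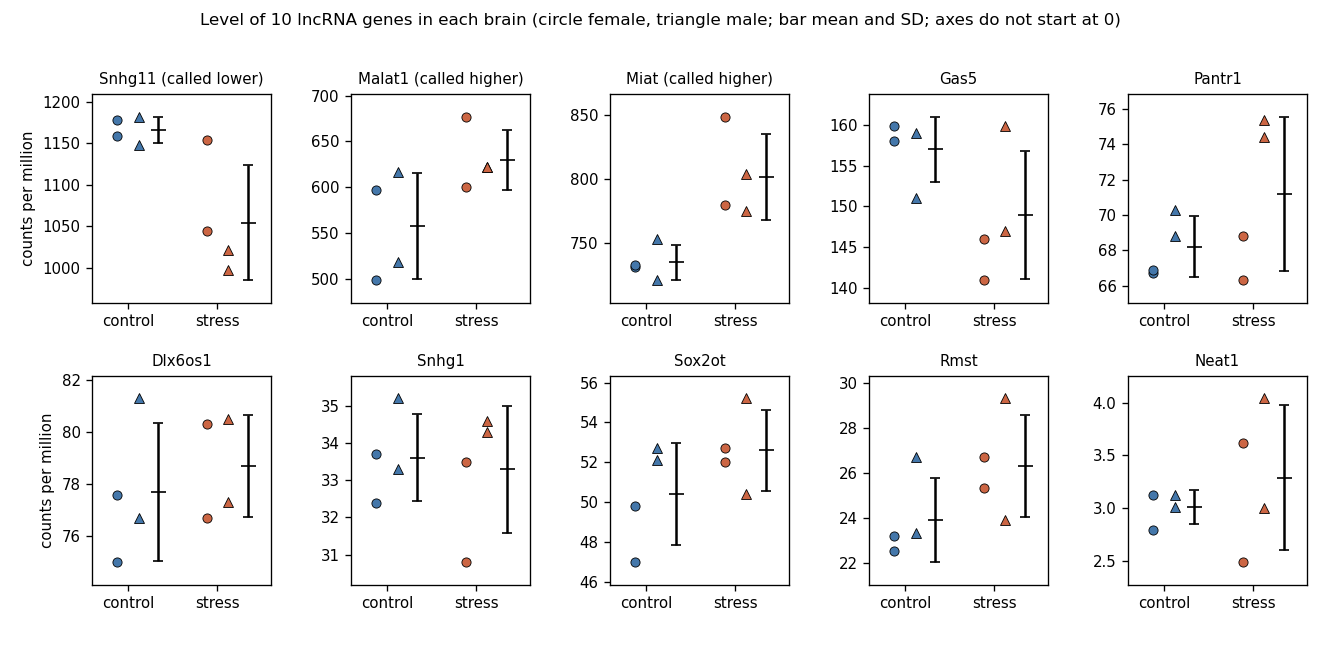
Level of the 10 genes in CPM in each brain, control on the left and stress on the right of each panel, circles for females and triangles for males, with the mean and SD of each group as a black bar. Axes do not start at 0. The 4 stress brains lay above all control brains for Miat (775 to 849 against 721 to 753 CPM), while for Snhg11 1 stress brain, F35 with 1154 CPM, lay among the control brains.

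Malat1 is the speckle RNA (ENSMUSG00000092341.2, chr19:5795690-5802672, minus strand, mm10, 1 exon of 6983 bases). It measured 499, 597, 519 and 617 CPM in control F36, F37, M30 and M31, and 601, 677, 622 and 622 CPM in stress F34, F35, M28 and M29. The control brains fell into a lower and a higher pair, each with 1 female and 1 male, and control M31 overlapped the stress group. The means were 558 ± 58.0 and 630.2 ± 32.7 CPM (SD, n = 4 each), a log2 fold change of 0.18 (SE 0.05, 95% interval 0.08 to 0.27, adjusted p = 0.0130 by edgeR), or 13% higher. The spread between control brains was wide for a gene of this level. Its coefficient of variation was 10.4%, against a median of 2.13% over 548 genes within 2-fold of its level, of which 99.6% had no larger one. The call was lost without control F36 (0.12, adjusted p = 0.0876), without control M30 (0.13, 0.0849) and without stress F35 (0.13, 0.0848). DESeq2's Wald test gave the same fold change with an adjusted p of 0.273.

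Neat1 (ENSMUSG00000092274.3, chr19:5824708-5845478, minus strand), the paraspeckle scaffold 22035 bases from Malat1, measured 3.13, 2.79, 3.01 and 3.13 CPM in the control brains and 3.62, 2.49, 3.0 and 4.04 CPM in the stress brains. The stress brains held both the lowest and the highest value. The log2 fold change was 0.13 (SE 0.13, adjusted p = 0.585). Its interval from -0.14 to 0.40 includes both 0 and the value of Malat1, so a change of that size could not be told from none. The coefficient of variation in stress brains was 20.8%, against a median of 11.6% over 2725 genes within 2-fold of its level. The value rested on single stress brains, with 0.02 without M29, 0.04 without F34, 0.20 without M28 and 0.23 without F35, none of them called.

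Miat (ENSMUSG00000097767.8, chr5:112213228-112229395, minus strand, 9293 exon bases) was the 1 gene of the 10 whose stress and control brains did not overlap. It measured 731, 733, 753 and 721 CPM in control F36, F37, M30 and M31, and 849, 780.1, 775 and 804 CPM in stress F34, F35, M28 and M29. Every stress brain was above every control brain, with means of 735 ± 13.5 and 802 ± 33.8 CPM. The log2 fold change was 0.13 (SE 0.03, 95% interval 0.07 to 0.19, adjusted p = 0.00360), or 9.18% higher, and it was called in each of the 8 fits that left out 1 brain (0.10 to 0.14) and by DESeq2 (adjusted p = 0.000538). Of its exon bases 30.4% are shared with other genes, most with Gm26953 on the opposite strand (24.3%). The counting was not set to use strand, so a pair in exons of both Miat and Gm26953 is assigned to neither. From the pairs assigned to it, Gm26953 had 0.725 CPM in control and 1.13 CPM in stress brains (log2 fold change 0.64, SE 0.23, adjusted p = 0.0668). These values do not give the level of either gene in the shared stretch.

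Snhg11 (ENSMUSG00000044349.15, chr2:158375638-158386145, plus strand, 8521 exon bases) is a neuronal snoRNA host, listed as protein coding in the GENCODE annotation and as a lncRNA in RefSeq. It measured 1178, 1158, 1148 and 1181 CPM in the control brains and 1044, 1154, 997 and 1021 CPM in stress F34, F35, M28 and M29. The control brains were close together, 3 stress brains lay below all of them, and stress F35 lay inside their range. The means were 1166 ± 15.8 and 1054 ± 69.1 CPM, and the gene fell by 0.15 on the log2 scale (SE 0.03, 95% interval -0.21 to -0.08, adjusted p = 0.00177). In percent it fell by 9.72. The call held in each of the 8 fits without 1 brain (-0.19 to -0.13) and by DESeq2 (adjusted p = 0.000190). The coefficient of variation was 1.35% in control and 6.56% in stress brains, and of 123 genes within 2-fold of its level 99.2% had no larger one in stress brains.

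**Figure D3:**
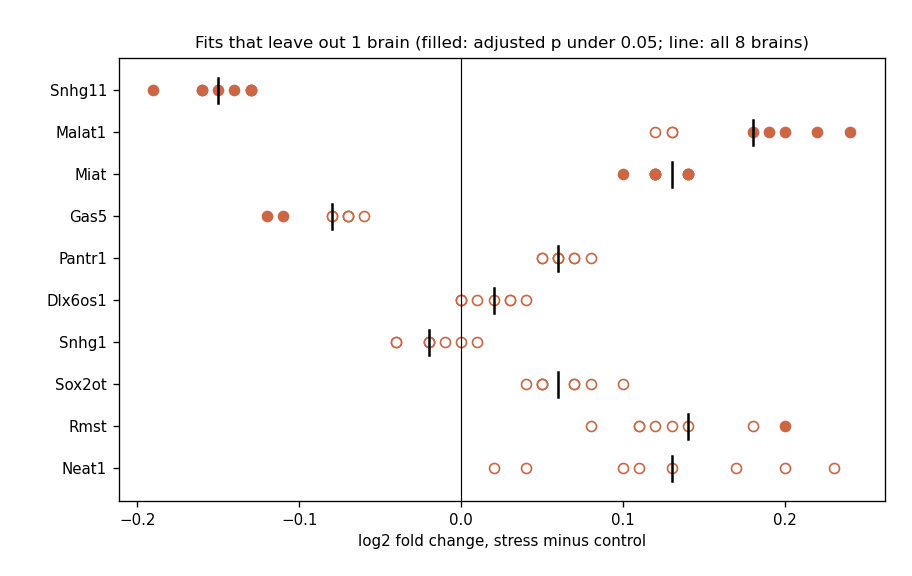
Log2 fold change of stress against control for each gene in the 8 fits that leave out 1 brain (circles, filled where the adjusted p was under 0.05), with the value from all 8 brains as a black line. Miat and Snhg11 were called in all 8 fits, Malat1 in 5, Gas5 in 2 and Rmst in 1.

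Of the other snoRNA hosts among the 10, Gas5 (ENSMUSG00000053332.13, chr1:161034422-161038539, plus strand) measured 159.8, 158, 159 and 151 CPM in control F36, F37, M30 and M31 and 141, 146, 147 and 159.8 CPM in stress F34, F35, M28 and M29. Here 3 stress brains were below all control brains, and stress M29 was level with the highest of them. The log2 fold change was -0.08 (SE 0.03, adjusted p = 0.115). It passed the threshold without control M31 (-0.11, adjusted p = 0.0371) and without stress M29 (-0.12, 0.0210), and not in the other 6 fits. Snhg1 (ENSMUSG00000108414.1, chr19:8723475-8726443, plus strand) ranged from 32.4 to 35.2 CPM in control and from 30.8 to 34.6 CPM in stress brains, a log2 fold change of -0.02 (SE 0.04, interval -0.10 to 0.07, adjusted p = 0.858). SnoRNA genes take up 17.8% of the exon bases of Gas5 and 20.9% of those of Snhg1, and the snoRNA rows themselves had 0 counts in all 8 libraries. A pair in exons of both host and snoRNA is not assigned, so these 0 counts do not show whether the snoRNAs were present.

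In the wider list of snoRNA hosts, 15 of the 20 genes were tested. By edgeR 2 were called, both lower, Snhg11 and Snhg12 (20.9 to 18.6 CPM, log2 fold change -0.17, SE 0.06, adjusted p = 0.0396). The median log2 fold change was -0.03. The summed level was 1743 to 1773 CPM in control and 1577 to 1731 CPM in stress brains, without overlap, and Snhg11 made up most of it. Zfas1 was also apart between the groups (38.1 to 35.3 CPM, -0.11, SE 0.04, adjusted p = 0.0713) without passing the test.

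The 4 genes of transcription factor loci and neurogenesis did not pass the test. Rmst (ENSMUSG00000112117.1, chr10:92071037-92165170, minus strand) measured 23.2, 22.5, 26.7 and 23.3 CPM in the control brains and 25.3, 26.7, 23.9 and 29.3 CPM in the stress brains, a log2 fold change of 0.14 (SE 0.06, adjusted p = 0.120). Control M30 was high and stress M28 low for their groups, and without stress M28 the gene was called (0.20, adjusted p = 0.0166). Without stress M29 the difference was 0.08 (adjusted p = 0.437). Of its exon bases 38.8% are shared with other genes, the largest stretch with Gm26700 on the opposite strand, which had 1 count in all. That count does not give the level of Gm26700 in the shared stretch, where pairs are not assigned. Sox2ot (ENSMUSG00000105265.4, chr3:34104270-34682619, plus strand) had 50.4 ± 2.56 CPM in control and 52.6 ± 2.02 CPM in stress brains (0.06, SE 0.04, adjusted p = 0.331).

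Pantr1 (ENSMUSG00000060424.14, chr1:42590782-42694842, minus strand), the 1 gene of the 10 that shares no exon base with another, had 68.2 ± 1.72 CPM in control and 71.2 ± 4.37 CPM in stress brains (0.06, SE 0.03, adjusted p = 0.232). Both male stress brains, with 74.4 and 75.4 CPM, lay above all other brains. Dlx6os1 (ENSMUSG00000090063.6, chr6:6820189-6871592, minus strand) lies at the Dlx5 and Dlx6 locus of ventral forebrain interneurons. Its span overlaps Dlx6 on the opposite strand, and Dlx5 lies 6212 bases outside the span. Dlx6os1 had 77.7 ± 2.65 and 78.7 ± 1.97 CPM (0.02, SE 0.03, interval -0.05 to 0.09, adjusted p = 0.770). Its second row, 146 bases of RNA type misc_RNA, shares 71.2% of its bases with the main row. It had 1 count over all libraries and was not tested.

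The second question was whether the genes differed between the sexes. None of the 10 was called by edgeR or by DESeq2, against 0.0896% of all genes, and 2 had an unadjusted p under 0.05, as did 5.91% of all genes. Pantr1 was lower in females than in males in every comparison of brains, with 66.3 to 68.8 CPM against 68.8 to 75.4 CPM, the nearest brains being equal when rounded (log2 fold change -0.10, SE 0.03, unadjusted p = 0.00391, adjusted p = 0.666). The sexes did not overlap for Pantr1 alone, 1 of the 10, and for 2.26% of all genes. Snhg11 had a log2 fold change of 0.06 between females and males (SE 0.03, unadjusted p = 0.0492, adjusted p = 0.843). The intervals of the other 8 genes included 0.

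**Figure D4:**
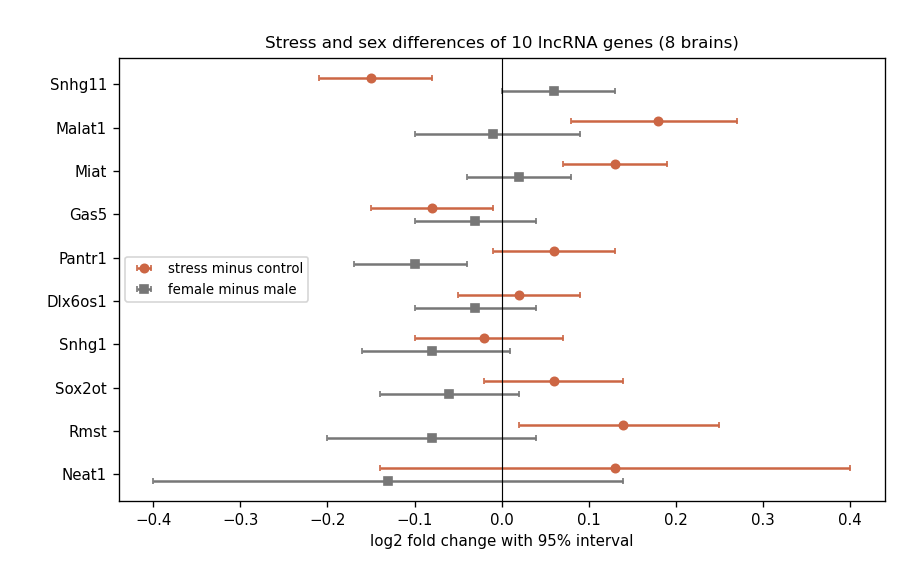
Log2 fold change of each gene with its 95% interval from the model over 8 brains, circles for stress minus control and squares for female minus male. The stress intervals of Malat1, Miat, Snhg11, Rmst and Gas5 excluded 0 before adjustment, and 3 of these, Malat1, Miat and Snhg11, were called after it.

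The third question was whether the stress difference was unlike between females and males. The interaction of sex and stress was not called for any of the 10 by edgeR or DESeq2, against 0.00560% of all genes, and 2 had an unadjusted p under 0.05, as did 6.31% of all genes. For Snhg11 the stress difference was -0.09 (SE 0.04, adjusted p = 0.212) in females and -0.21 (SE 0.04, adjusted p = 0.00190) in males, with an interaction of 0.12 (SE 0.05, unadjusted p = 0.0403, adjusted p = 0.765). For Gas5 it was -0.14 (SE 0.04, adjusted p = 0.0532) in females and -0.01 (SE 0.04, adjusted p = 0.893) in males (interaction -0.13, SE 0.06, unadjusted p = 0.0380, adjusted p = 0.764). Malat1 had 0.22 (SE 0.07) in females and 0.13 (SE 0.07) in males in this model and passed in neither sex (adjusted p = 0.0579 and 0.265), and Miat had 0.15 (SE 0.04, adjusted p = 0.0233) in females and 0.10 (SE 0.04, adjusted p = 0.124) in males.

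Proteins that work with these RNAs were read from lists. Of 12 paraspeckle proteins, 3 were called and all 3 were higher, Nono (579.7 to 625 CPM, log2 fold change 0.11, SE 0.03, adjusted p = 0.00524), Pspc1 (0.14, SE 0.03, 0.00737) and Hnrnpk (0.13, SE 0.03, 0.00138). Nono and Pspc1 are core paraspeckle proteins, as is Sfpq, which had 577 and 557 CPM (-0.05, SE 0.02, adjusted p = 0.179) and was not called, and Hnrnpk takes part in the processing of Neat1. The list's median was 0.05 and its summed level was 4250.4 to 4350.4 CPM in control and 4418 to 4623 CPM in stress brains, without overlap. Of 10 nuclear speckle proteins, Son, a core protein of speckles, was higher (545 to 584 CPM, 0.10, SE 0.03, adjusted p = 0.0168) and the splicing factor Srsf7 lower (-0.09, SE 0.03, 0.0171). Of 10 factors of nonsense-mediated decay, the pathway known to degrade transcripts such as those of Gas5, 1 was called, Smg1, and it was lower (-0.09, SE 0.03, adjusted p = 0.0419).

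Of 14 partners of the 10 genes by locus or protein, 2 were higher, Ewsr1 (353 to 389 CPM, 0.14, SE 0.03, adjusted p = 0.000590) and Sox2. Sox2 lies inside the span of Sox2ot on the same strand and had 133 CPM in control and 144 CPM in stress brains (0.12, SE 0.03, adjusted p = 0.0104). The difference of Sox2ot itself was 0.06, as given above, and was not called. Dlx5 was apart between the groups without passing the test (24.4 to 26.9 CPM, 0.14, SE 0.05, adjusted p = 0.0554), and Dlx6 had 15.6 CPM in both groups. Pou3f3, beside Pantr1, had 294 and 297 CPM (0.01, SE 0.03, adjusted p = 0.825). Celf3 and Qk, splicing regulators that bind Miat, were not called (adjusted p = 0.754 and 0.102).

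Of the nearest tested genes on each side, Crybb1, 26419 bases from Miat on the opposite strand, was lower (1.37 to 0.836 CPM, -0.72, SE 0.21, adjusted p = 0.0237), so the lncRNA and its neighbour moved in opposite directions. Tmpo, the next tested gene below Rmst but 889721 bases away, was higher (0.10, SE 0.03, adjusted p = 0.0108). Stx5a, 14969 bases from Snhg1, was lower (-0.09, SE 0.03, adjusted p = 0.0443). Apart from Malat1 beside Neat1, no other nearest gene was called. Over all 17865 genes 13.8% were called in either direction, and a relation of these genes to the lncRNAs was not tested. Slc3a2, 105 bases from Snhg1 on the opposite strand, had 88.0 and 84.4 CPM (-0.06, SE 0.03, adjusted p = 0.226).

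Of 25 tested genes in a list of other known lncRNAs, 4 were higher and 3 lower, with a median of 0.06. Those called higher included Mir9-3hg and Mir124-2hg, hosts of the neural microRNAs miR-9 and miR-124, at 57.4 to 71.9 CPM (0.33, SE 0.04, adjusted p = 1.55e-05) and 161 to 188 CPM (0.22, SE 0.04, adjusted p = 0.000164). Mir124a-1hg, another host of miR-124, had 284 and 296 CPM (0.06, SE 0.03, adjusted p = 0.194) and was not called. H19, a maternally expressed imprinted RNA, was higher by 0.26 (SE 0.07, adjusted p = 0.00930), and Jpx by 0.25 (SE 0.06, adjusted p = 0.00624). Meg3 and Rian, imprinted RNAs of 1 locus that is active in neurons, fell by 0.18 (2714 to 2399 CPM, SE 0.03, adjusted p = 0.000126) and by 0.13 (929 to 852 CPM, SE 0.03, adjusted p = 0.00420) on the log2 scale. Mirg, of the same locus, had 27.3 and 27.8 CPM (0.02, SE 0.05, adjusted p = 0.820) and was not called. Dubr fell by 0.17 (SE 0.05, adjusted p = 0.0127). Meg3, Rian and Dubr were apart between the groups, and so were Mir9-3hg and Mir124-2hg among those called higher. Over all genes 16.4% were apart in either direction.

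Several lists of cell type markers moved with the stress group, and in bulk tissue fewer cells of a type and less RNA per cell cannot be told apart. Of 10 neuronal markers 6 were called and all 6 were lower, among them Syp and Syn1 of synaptic vesicles (-0.18 each, SE 0.03, adjusted p = 7.51e-05 and 0.000161) and the neuronal nuclear protein Rbfox3 (-0.13, SE 0.03, 0.00880). The median of the list was -0.09, and the summed level overlapped, 6822 to 7054 CPM in control and 6659 to 6945 CPM in stress brains. All 8 proliferation markers were higher, with a median of 0.23 and summed levels of 639 to 689 and 721 to 825 CPM, for example Ccnb1 (0.26, SE 0.04, adjusted p = 0.000134) and Top2a (0.24, SE 0.03, 1.48e-05). Of 6 markers of intermediate progenitors 5 were higher (331 to 358 and 367 to 409.6 CPM summed), led by Neurog1 (0.46, SE 0.14, adjusted p = 0.0247) and Eomes (0.25, SE 0.03, 8.40e-06). Of 10 markers of radial glia 5 were higher, with a median of 0.10 and sums that overlapped (1649.9 to 1754 and 1685 to 1821 CPM). The other 5 were not called. Sox9 was at 0.09, and Hes1 (-0.08), Hes5 (-0.10), Fabp7 (-0.02) and Slc1a3 (-0.04) were below 0. These lists moved beside the lower Snhg11 and the higher Miat, and their part in those differences was not tested.

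Markers of other cells moved as well. Of 6 endothelial markers 3 were lower (154 to 169 and 138 to 149 CPM summed), such as Flt1 (-0.41, SE 0.06, adjusted p = 2.19e-05). Pecam1 (-0.09, SE 0.06, adjusted p = 0.374) and Cdh5 (-0.05, SE 0.05, 0.625) were not called, nor was Tie1, which went the other way (0.14, SE 0.05, 0.0713). Of 5 markers of the oligodendrocyte lineage 2 were lower (117 to 129 and 104 to 109 CPM), Pdgfra (-0.31, SE 0.05, 0.000187) and Olig1 (-0.26, SE 0.04, 0.000149). Of 5 tested markers of mesenchyme and meninges 3 were higher, with a median of 0.79 and summed levels of 16 to 29.1 and 20.7 to 63.3 CPM. Of 5 choroid plexus markers 2 were higher, Ttr (1.91, SE 0.47, adjusted p = 0.00717) and Otx2 (0.19, SE 0.04, 0.00294), with sums of 36.9 to 47.1 and 46.6 to 76.1 CPM. Ttr overlapped between the groups, at 2.65 ± 2.93 CPM in control and 10.6 ± 13.2 CPM in stress brains, and Otx2, at 38.1 and 43.2 CPM, made up most of the sum. Folr1 (-0.20, SE 0.33, adjusted p = 0.752) and Kl (-0.37, SE 0.26, 0.392) of the same list were not called. Among 8 erythroid genes the embryonic globins Hba-x (1.09, SE 0.15, adjusted p = 2.21e-05) and Hbb-y (0.84, SE 0.13, 0.000120) were higher and Hbb-bs lower (-0.14, SE 0.04, 0.00976), with sums of 364 to 412 and 370.2 to 384 CPM. Of 12 genes of ventral forebrain GABAergic cells, which express Dlx6os1, 1 was higher, Dlx2 (0.13, SE 0.04, adjusted p = 0.0333), with sums of 827 to 856 and 842 to 870.4 CPM. Of 6 microglial markers and 8 markers of midbrain floor plate none was called by edgeR (0 also with an unadjusted p under 0.05), with sums of 27.8 to 30.7 and 26.1 to 29.9 CPM and of 76.6 to 84.2 and 78.2 to 87.6 CPM. No marker was at 0 in all libraries, and the part of these cells in the values of the 10 lncRNAs was not tested.

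**Figure D5:**
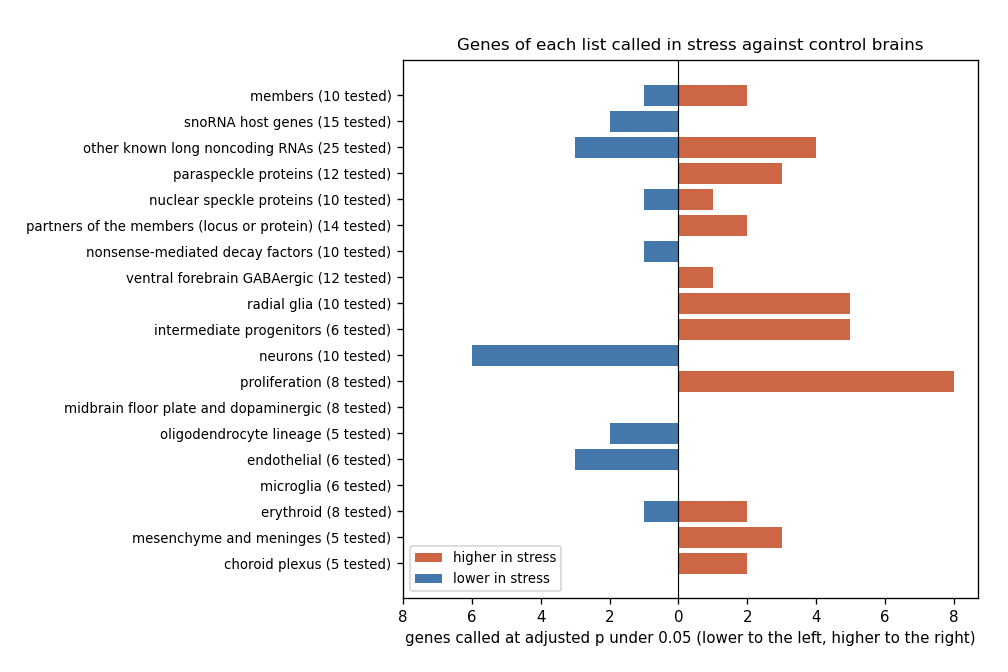
Number of genes of each list called in stress against control brains by edgeR, lower to the left and higher to the right, with the number tested beside each name (members are the 10 lncRNA genes). Neurons stood out to the left with 6 of 10, and proliferation to the right with 8 of 8.

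The 10 genes did not share 1 pattern over the 8 brains. Pairwise Pearson correlations of log2 CPM, given as a description since all points share the same 8 libraries and the same group difference, ran from 0.83 for Rmst and Sox2ot to -0.74 for Miat and Snhg11. Pantr1 and Snhg1 had 0.70 and the host genes Snhg1 and Gas5 0.56. Among all tested genes, those most like Snhg11 over the 8 brains were Brinp1 (0.990) and B4galt6 (0.983), and those most like Miat were Rfwd3 (0.991) and Mapkapk2 (0.985). Malat1 was most like Hook3 (0.968) and Ankrd28 (0.963), which had 129 and 80.0 CPM in control brains. Pantr1 was most like Apex1 (0.990) and Bud31 (0.971), Rmst most like Mettl25 (0.981) and Fam114a2 (0.957), and Gas5 most like Uqcrb (0.972) and Zfp449 (0.957). For Sox2ot they were Mib1 (0.968) and Creb5 (0.953), for Snhg1 Plscr1 (0.963) and Gm44830 (0.953), for Neat1 Map2k7 (0.958) and Lbhd1 (0.955), and for Dlx6os1 Col28a1 (0.950) and Fam163a (0.947). A correlation above 0.9 was reached by 196 genes for Snhg11, 135 for Miat and 48 for Malat1, and by 15 to 53 for the other 7.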

How the data were processed

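RNA from 8 brains was sequenced by the authors after oligo(dT) capture as paired reads of 100 bases. Per the study's methods, the authors trimmed reads at quality 20, aligned the reads with TopHat2 2.1.1 to mm10, allowing up to 20 places each, and counted read pairs on exons with featureCounts 1.6.3 and GENCODE vM20. The deposited values are raw counts per gene, without normalization. Options for strand, reads with several places and overlapping genes were not set, and a pair in exons of 2 genes is then not assigned. Symbols were taken from GENCODE vM21, which matched 54723 of 54752 identifiers, and 6 symbols of the gene lists were not matched.

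From the counts, genes were kept by filterByExpr (minimum count 10, by group) and tested in R 4.3.3 with edgeR 4.0.16 (TMM, glmQLFit, glmQLFTest, sex and condition in the model, and a sex by stress interaction). A standard error is the absolute log2 fold change over the square root of F. The study's model also held batch, and the study's sample table has no batch column for these 8 libraries. Alternatives were DESeq2 1.42.0 (with independent filtering off), other normalizations, no filter, no sex term, each sex alone and each brain left out. A prior count of 2 was used for log2 CPM.

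The genes and lists were chosen with earlier results of these data known. The named genes are the 10 lncRNAs, their locus and protein partners, overlapping and nearest tested genes, up to 3 called genes with the largest change in each direction per list, and the 2 genes most correlated with each lncRNA. Zfas1, Mir124-2hg, Mir124a-1hg, Mirg, Sfpq, Folr1, Kl, Pecam1, Cdh5 and Tie1 fall outside this rule and were named after their values were seen. The same holds for Sox9, Hes1, Hes5, Fabp7 and Slc1a3. The brains of a group differed by more than sampling noise (chi-square per gene 2.00 to 6.32 between pairs), so each was counted as 1 sample.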

Additional observations from a re-analysis of the deposited data

Results flagged for a closer look

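Of 20 sets of 4 brains (10 genes in 2 groups), 1 held a brain far from the others of its group. Gas5 was at 151 CPM in control M31, while the other control brains lay between 158 and 159.8 CPM. The gap was 0.841 of the range of the group, above Dixon's critical value for 4 samples. Chance gives such a gap in about 1 in 20 groups. Without control M31, Gas5 was called lower in stress brains (log2 fold change -0.11, adjusted p = 0.0371 by edgeR).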

How the results depend on the processing

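Normalization by DESeq2 size factors, upper quartiles or library totals alone, no filter on low counts and no sex term left the same 2 genes higher and the same gene lower. With DESeq2's Wald test 1 gene was called higher, Miat, and with males alone 0 (Malat1 0.13, adjusted p = 0.0773, and Miat 0.10, 0.0767, by edgeR). With females alone Malat1 (0.22, adjusted p = 0.0137) and Miat (0.15, 0.0221) were called higher by edgeR. In that fit 1 gene was called lower, as in the fit over both sexes. That gene was Gas5 (-0.14, adjusted p = 0.0454) and not Snhg11 (-0.09, 0.238). Without 1 brain the number called higher was 1 to 3 and the number called lower 1 to 2, with the brains named beside each gene in the report. The sex and interaction counts stayed at 0 in each alternative run. The share of counts taken by the 10 genes differed by -0.00105 to 0.00582 percentage points without 1 brain, and was below 0 only without stress F35, the brain with the highest share. No call changed direction. No paired analysis was possible because the brains of the groups share no numbers in the labels. With 4 brains against 4 the smallest exact p is 0.0286, and Neat1 had the fewest counts of the 10 genes, 63 to 117.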
